A study of Equus caballus with 12 samples.

Results

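The cytosolic ribosomal protein genes encode the proteins of the large (60S) and small (40S) ribosomal subunits that translate nuclear mRNAs. Their members were chosen by name: every gene of the expression data whose Ensembl identifier the study's supplementary files pair with an RPL or RPS name, without the RPS6K kinases. The rule found 31 of 11425 genes, 16 of the 60S and 15 of the 40S subunit. RefSeq lists 83 names of this kind for the horse (TB-T2T assembly), and all 31 members are among them, so the genes described are a part of the family. Names could be read for 2625 of the 11425 identifiers. The name lists were held here only in part and were ordered by fold change, with genes lower in the vitrified groups read first. How many members were higher or lower in a vitrified group is therefore a description, and nothing is read from it. The same holds for the members' median fold changes and for their counts by p-value beside all genes. It also holds for differences between groups in their share of the libraries, and for their mean pattern over libraries.

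A ribosome needs equal numbers of nearly all of its proteins, and the mRNAs for them share a terminal oligopyrimidine (TOP) tract at the 5′ end, through which the mTOR pathway and LARP1 control their translation together. The growing oocyte builds up ribosomes and mRNAs for later use. During meiotic maturation transcription is silent, stored mRNAs gain or lose poly(A) tail, and in frog oocytes ribosomal protein mRNAs are among those that lose it. The 3′ library kit used here primes on poly(A), so a count depends on the poly(A) tail as well as on the number of mRNA molecules, and these cannot be told apart here.

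The libraries were made from pools of horse oocytes, on average 23 per pool, recovered from ovaries of slaughtered mares. In VIM (VGV in the labels), immature oocytes within their corona radiata were vitrified, warmed and then matured in vitro. In VMAT, oocytes were first matured in vitro and denuded, then vitrified and warmed, and cultured briefly before sampling. Fresh oocytes (FR) were matured in vitro without vitrification. FR and VMAT oocytes were matured together and were assigned to these groups afterwards. All groups shared the maturation culture with FSH and LH, the removal of cumulus cells and the selection for a visible polar body, so all libraries represent oocytes that reached maturity, and losses before that point are not in the data. Of 5 pools per group, the authors kept 4 VIM, 4 VMAT and 5 FR pools after checking RNA amount and integrity. They then removed 1 further VMAT sample for deviating quality, which left 4 VIM, 3 VMAT and 5 FR libraries. Pools were thus lost on quality in the vitrified groups only. Pools from the same or different animals were not distinguished, so p-values measure the spread between pools. In pooled material, fewer oocytes that hold an mRNA and less of it per oocyte cannot be told apart.

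Libraries held 1636620 to 12166950 reads on genes, the lowest and the highest both in VMAT (replicates 1 and 2). The unit throughout is the normalized count, which is the count divided by the library's DESeq2 size factor. The 3 VMAT libraries differed most in this scaling, since 3 reads corresponded to 9.34 normalized counts in VMAT replicate 1 and to 0.376 in VMAT replicate 2. Scaling did not make the library totals equal. Normalized counts summed to 5092878 in VMAT replicate 1 and to 1523765 in VMAT replicate 2, and to 2378807 to 3460677 in the other libraries. Replicate libraries correlated at r = 0.616 to 0.65 over all genes (log2 values, 19 pairs within groups, across genes), and no replicate pair agreed within sampling noise. Of 20 listed oocyte markers 13 had a readable name, and 8 to 13 of these had 30 reads or more in each library. DPPA3 was at 4501 or more and BTG4 at 3177 or more in every library, whereas FIGLA ran from 0 to 711 and had 30 reads or more in 6 of 12 libraries. Of 17 listed cumulus markers only HAS2 could be named. It ran from 254 to 2144 normalized counts over the 12 libraries. Of 10 markers of other cells only PECAM1 could be named, at 8.01 to 1450. The share of cumulus or other cell RNA in these libraries was not tested.

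The share of each library on the 31 genes was summed, and it leaves out the family members without a readable name. They held 0.399% to 0.783% of all normalized counts, with a median of 0.566% over the 12 libraries. The VIM libraries were at 0.551%, 0.581%, 0.461% and 0.534% (0.532% ± 0.0507, SD, n = 4). The VMAT libraries were at 0.538%, 0.539% and 0.595% (0.558% ± 0.0328, SD, n = 3). The FR libraries were at 0.598%, 0.399%, 0.616%, 0.697% and 0.783% (0.619% ± 0.143, SD, n = 5). All VIM and VMAT values lay inside the FR range, and FR held both the lowest and the highest library. The 40S genes held 0.216% to 0.4996% and the 60S genes 0.177% to 0.326%.

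**Figure D1:**
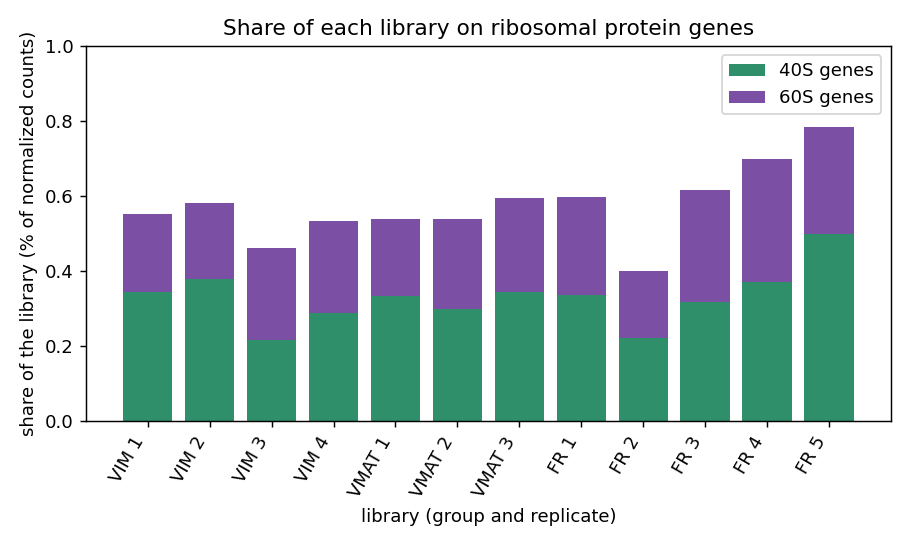
Share of all normalized counts (%, stacked bars) held by the 15 small subunit (40S) and 16 large subunit (60S) genes in each of the 12 libraries. The 4 VIM and 3 VMAT bars end between 0.461% and 0.595%, inside the range of the 5 FR bars (0.399% to 0.783%).

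Levels of single members spanned a wide range. Because each mRNA is counted at its 3′ end, counts are not divided by transcript length, and the order of genes below is one of normalized counts, which also depends on how well each 3′ end can be mapped. RPS9, a protein near the mRNA entry of the 40S subunit, had the highest mean over all libraries, 2571 normalized counts. Also high were RPL4, which lines the exit tunnel of the 60S subunit (2103), the 60S protein RPL13 (842) and RPLP0 (767), the base of the stalk on which elongation factors act. Among all genes of the table RPS9 ranked 172 and RPL4 234. At the other end were RPL28 (115), RPS4X (104), RPL10 (98.5), RPL19 (86.0) and RPS10 (84.7), the last at rank 3844. RPL10 completes the 60S subunit late in its assembly, RPL19 reaches across to the 40S subunit, and RPS10 sits on the 40S subunit where stalled ribosomes are tagged with ubiquitin. Each of the 30 pairs of neighbours in this order had a mean log2 difference smaller than the SD of that difference over the 12 libraries.

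RPS9 and RPL4 were also among the steadier members, with a within-group SD of log2 values of 0.73 in RPS9. RPS9 was at 2102, 2872, 1835 and 2302 in VIM, at 7394, 1021 and 2561 in VMAT and at 1994, 1510, 2652, 1873 and 2738 in FR. RPL4 was at 1652, 2269, 3254 and 1056 in VIM, at 5461, 372 and 2623 in VMAT and at 2704, 1768, 1033, 1140 and 1897 in FR. For both genes the groups overlapped and VMAT was the widest. Its highest and lowest values were in VMAT replicates 1 and 2. These libraries had the fewest and the most reads, and also the highest and the lowest normalized total.

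RPL13 had the smallest spread on the log2 scale, with a within-group SD of 0.68. It was at 578, 921, 335 and 1661 in VIM, at 551, 422 and 686 in VMAT and at 1072, 522, 1085, 1336 and 936 in FR. RPLP0 was at 227, 1765, 504 and 1111 in VIM, at 274, 633 and 704 in VMAT and at 36.7, 416, 1114, 1075 and 1346 in FR. Both genes overlapped between all groups, and FR replicate 1 was the low library for RPLP0.

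Below these, most members alternated between high normalized counts in some libraries and a few reads in others, within every group. Of the 372 values (31 genes in 12 libraries), 3 were 0 reads, 96 were 1 to 29 reads, 28 were 30 to 99 and 245 were 100 or more. The share under 30 reads was 26.6%, against 33.5% over the 3844 genes of the table at or above the lowest mean level of a member and 69.6% over all genes. There were 5 members that never fell under 30 reads, among them RPS9, RPL4, RPL13 and RPLP0. There were 12 members under 30 reads in 1 to 3 libraries (among them RPS2, RPL26, RPS12, RPS26, RPL5, RPS25, RPS7, RPL37, RPL26L1, RPL35A and RPL28, mean levels 115 to 767). The remaining 14 were under 30 reads in 4 or more libraries (among them RPS20, RPL14, RPL31, RPSA, RPLP2, RPS19, RPS13, RPS27A, RPL15, RPS4X, RPL10, RPL19 and RPS10, with mean levels of 84.7 to 324 in those named). Members with at least 30 reads numbered 22, 19, 19 and 23 in VIM, 15, 29 and 20 in VMAT and 24, 19, 25, 30 and 28 in FR. The lowest and highest VMAT numbers belong to its shallowest and deepest library. In the same order, reads on genes were 3930366, 2123138, 2529193 and 2964979 in VIM. In FR they were 2833957, 2740837, 4331042, 4715119 and 3577836. A fixed limit of 30 reads depends on depth, and these numbers were not adjusted for it, so no group difference is read from them.

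**Figure D2:**
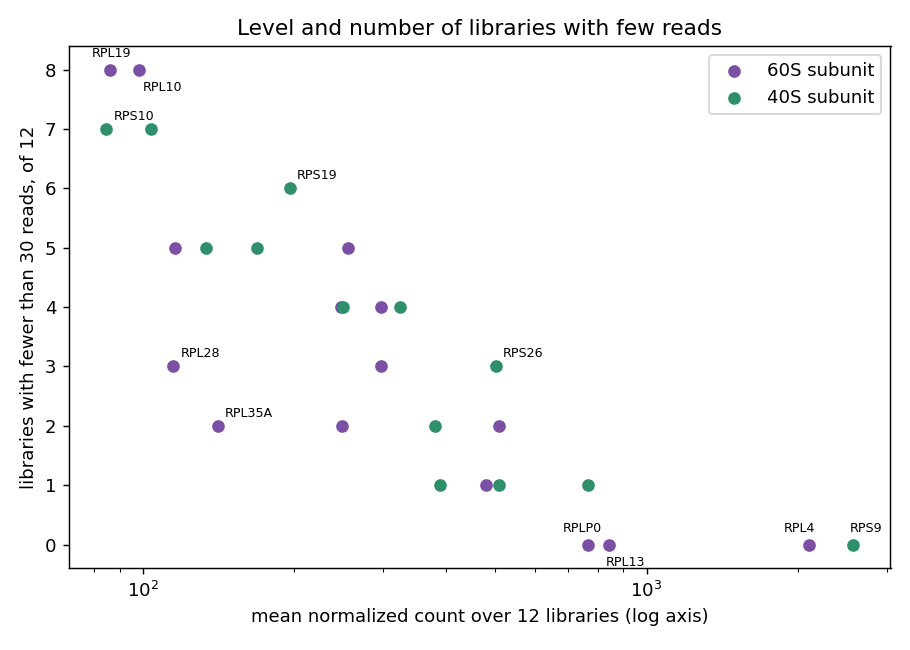
Mean normalized count over the 12 libraries (log axis) of 28 members against the number of libraries in which it had fewer than 30 reads, coloured by subunit. The 4 genes at 0 libraries have means of 767 to 2571, and RPL10 and RPL19 reach 8 of 12 libraries.

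RPL31, RPS19 and RPL14 had the widest spread within groups. RPL31, a 60S protein at the mouth of the exit tunnel, was at 2.46, 1.63, 3.62 and 901 in VIM, at 3.11, 4.26 and 1094 in VMAT and at 501, 1.14, 21.3, 179 and 351 in FR (within-group SD of log2 values 3.85). RPS19, whose mutation in people causes Diamond-Blackfan anaemia, was at 351, 3.26, 264 and 6.84 in VIM, at 218, 3.51 and 4.72 in VMAT and at 659.8, 5.72, 2.80, 422 and 407 in FR (SD 3.43). RPL14, a 60S protein, was at 3.68, 269, 471 and 1.96 in VIM, at 6.22, 109 and 591 in VMAT and at 562, 559, 369, 619 and 2.86 in FR (SD 3.41). Each of these genes had libraries under 10 and libraries over 100 in all 3 groups, so high and low libraries occurred in every group. The median within-group SD over the 31 members was 2.32 (quartiles 1.68 and 2.78), 2.40 in the 60S and 2.19 in the 40S genes. It was 2.58 over the 7351 genes that entered the VIM vs. FR fit and 2.76 over the 3844 genes at member level.

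**Figure D3:**
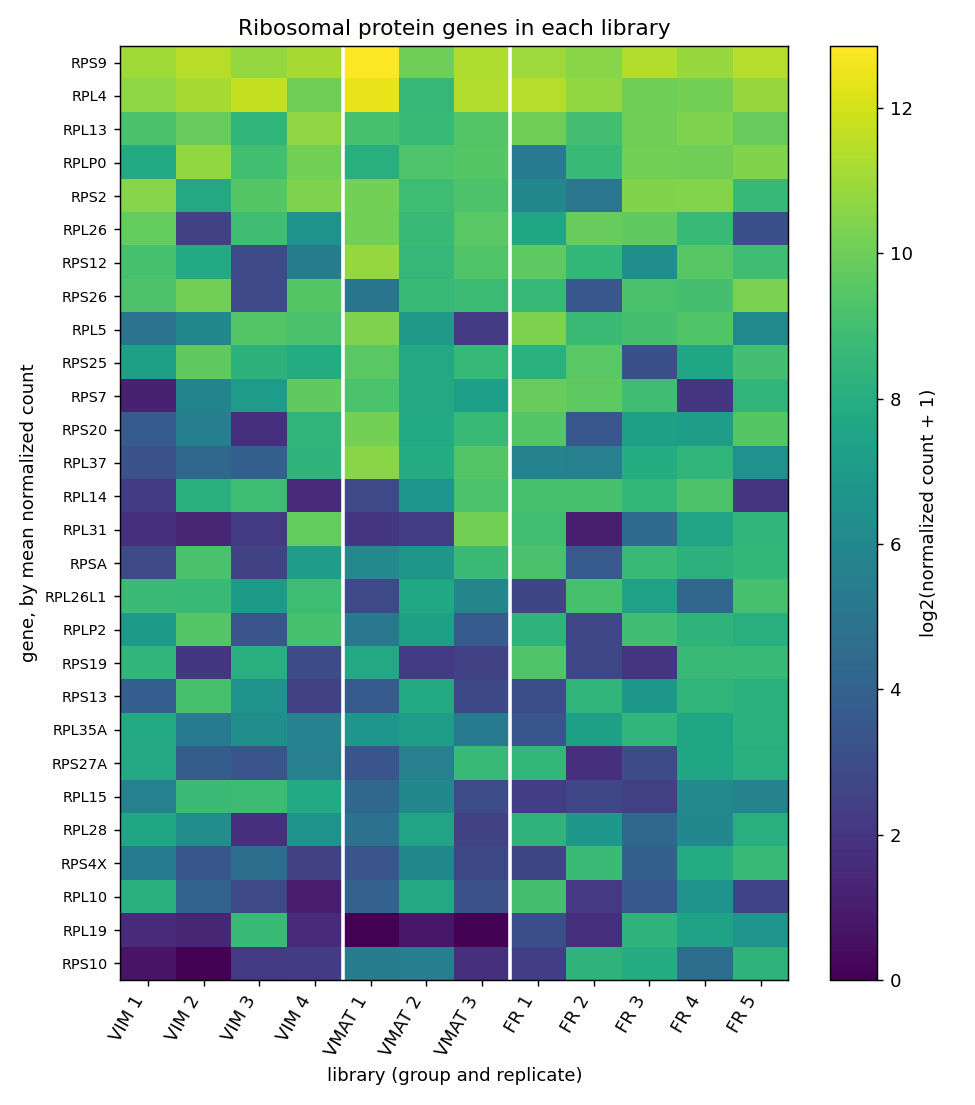
Log2 of the normalized count plus 1 (colour) of 28 members, ordered by mean level, in the 12 libraries, with white lines between VIM, VMAT and FR. The top rows are high throughout, and below them dark cells of a few reads are scattered over all groups, with 3 values at 0 reads.

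How the members varied together is given as a description, because many of the counts are sparse. Over the 12 libraries, the median Pearson correlation of log2 values was -0.011 over the 465 pairs of members, with quartiles of -0.199 and 0.217, and -0.001 over all pairs of the 3844 genes at member level. The points share library depth and scaling. The highest pair was RPLP2, an acidic stalk protein, with RPS26, near the mRNA exit (r = 0.816), and RPL37 with RPS20 was also high (0.755). The lowest was RPL10 with RPLP0 (-0.596). Between replicate libraries, the correlation over the 31 members was 0.114 to 0.610, with a median of 0.377, and the median over all genes was 0.635. These medians are not like for like, because all genes span a wider range of levels. Of their values 40.4% were 0 reads, against 0.8% in the members. A correlation over genes of matched level was not computed. The non-member genes most like the members' mean log2 value over the 12 libraries were ENSECAG00000000327 (r = 0.93), ENSECAG00000019528 (0.90), ENSECAG00000021745 (0.90), ENSECAG00000017860 (0.89) and TRAK2 (0.89), an adaptor of mitochondrial transport along microtubules. TRAK2 was at 0 to 3.11 in the VIM and VMAT libraries and at 18.3, 1.14, 0.56, 154 and 459 in FR. Its highest values were in FR replicates 4 and 5, which had 30 and 28 members at 30 reads or more. VMAT replicate 2 had 29 such members, with TRAK2 at 0.88. These genes were picked for their r among many, and no background for such values was computed.

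RPL26, near the exit of the peptide tunnel, and its close copy RPL26L1 are nearly identical in protein, and reads could be split between them or between members and processed pseudogenes, of which ribosomal protein genes have many, so their values are uncertain. RPL26 was at 904, 4.89, 474 and 97.8 in VIM, at 1098, 408 and 759 in VMAT and at 195, 927, 835, 399 and 7.87 in FR. RPL26L1 was at 436, 409, 125 and 464 in VIM, at 6.22, 206 and 56.6 in VMAT and at 5.39, 554, 166, 17.7 and 543 in FR. In VIM replicate 2 and FR replicate 5 RPL26 was low and RPL26L1 above 400, while in VMAT replicate 1 and FR replicate 1 the order was the opposite. In VIM replicate 1, VMAT replicate 2 and FR replicate 2 both genes were at 206 or more. Whether reads were split between these genes was not tested.

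The first comparison asked how oocytes vitrified before maturation differed from fresh ones. Members had a log2 fold change between -5.04 and 3.89 on the log2(normalized count + 1) scale. In limma with Benjamini-Hochberg adjustment over all genes tested, 0 of 31 members passed an adjusted p of 0.05 with an absolute log2 fold change of 1, and the background was 0% (0 of 7351 genes), with a smallest adjusted p of 0.902. At an unadjusted limma p under 0.05 there were 2 of 31 members, against 3.78% of all genes (278 of 7351).

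RPS10 was the member with the smallest p and RPL15, a 60S protein, the next. RPS10 was at 0.614, 0, 3.62 and 3.91 in VIM (2.04 ± 2.01, SD, n = 4), at 40.5, 44.3 and 2.36 in VMAT and at 4.31, 324, 246, 23.7 and 324 in FR (184 ± 159, SD, n = 5). All VIM libraries were below all FR libraries in normalized counts, and groups did not overlap for 1.59% of all genes. In reads, however, the VIM libraries held 1, 0, 3 and 4 and FR replicate 1 held 4, so the separation at that end rests on the scaling and on single reads. In VIM replicate 2 a count of 0 allows up to 3 reads, or 4.89 normalized counts. The log2 fold change of RPS10 was -5.04 with an SE of 2.21 (limma, unadjusted p = 0.0324, adjusted p = 0.902). With DESeq2 on the recovered reads the same gene passed the thresholds (log2 fold change -6.53, adjusted p = 0.00221), as did 6.87% of all genes, and it was the only member to do so. EdgeR on those reads called 0 members and 0% of genes, with an adjusted p of 0.281 for RPS10. At an unadjusted p under 0.05 DESeq2 had 3 members beside 12.9% of all genes, and edgeR 1 member beside 16.8%.

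RPL15 was at 49.7, 437, 456 and 229.8 in VIM (293 ± 192, SD, n = 4), at 18.7, 61.1 and 7.07 in VMAT and at 4.31, 5.72, 4.48, 65.1 and 53.7 in FR (26.7 ± 30.2, SD, n = 5). VIM replicates 2 to 4 were above every FR library, and VIM replicate 1 lay within the FR range. Its log2 fold change was 3.89 with an SE of 1.83 (limma, unadjusted p = 0.0436, adjusted p = 0.902). In fits that each left out 1 of the 9 libraries, RPS10 kept an unadjusted limma p under 0.05 in 4 and RPL15 in 3. RPS10 lost it without VIM replicate 1 or 2 or FR replicate 2, 3 or 5, and RPL15 without VIM replicate 2, 3 or 4 or FR replicate 1, 2 or 3.

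Other members among the 6 with the smallest p in this comparison were RPS12, of the beak of the 40S subunit (log2 fold change -2.27, SE 1.40), RPS20, of the head of the 40S subunit (-2.50, SE 1.80), and RPSA, also known as the laminin receptor (-2.26, SE 1.74). RPS12 was at 560.5, 233, 6.03 and 43.0 in VIM, at 1792, 371 and 657 in VMAT and at 803, 358, 82.3, 719 and 482 in FR. RPSA was at 6.14, 574, 4.82 and 130.1 in VIM, at 65.3, 112 and 439 in VMAT and at 581, 11.4, 407, 304 and 364 in FR. In each of these genes 2 or more VIM libraries lay inside the FR range, with 2 below it for RPS12 and RPSA and 1 for RPS20. Without VIM replicate 3 the log2 fold change was -1.10 for RPS12, -1.47 for RPS20 and -1.31 for RPSA, and that of RPSA was -1.40 without VIM replicate 1 and -3.51 without VIM replicate 2. The median log2 fold change of the 31 members was -0.82 (9 higher and 22 lower in VIM), and that of all genes tested was -0.12 (46.9% higher and 53.1% lower). The members' median was -0.38 with DESeq2, and -1.34 without FR replicate 2 and -1.29 without FR replicate 3. The 60S genes had a median of -0.80 and the 40S genes of -0.90.

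**Figure D4:**
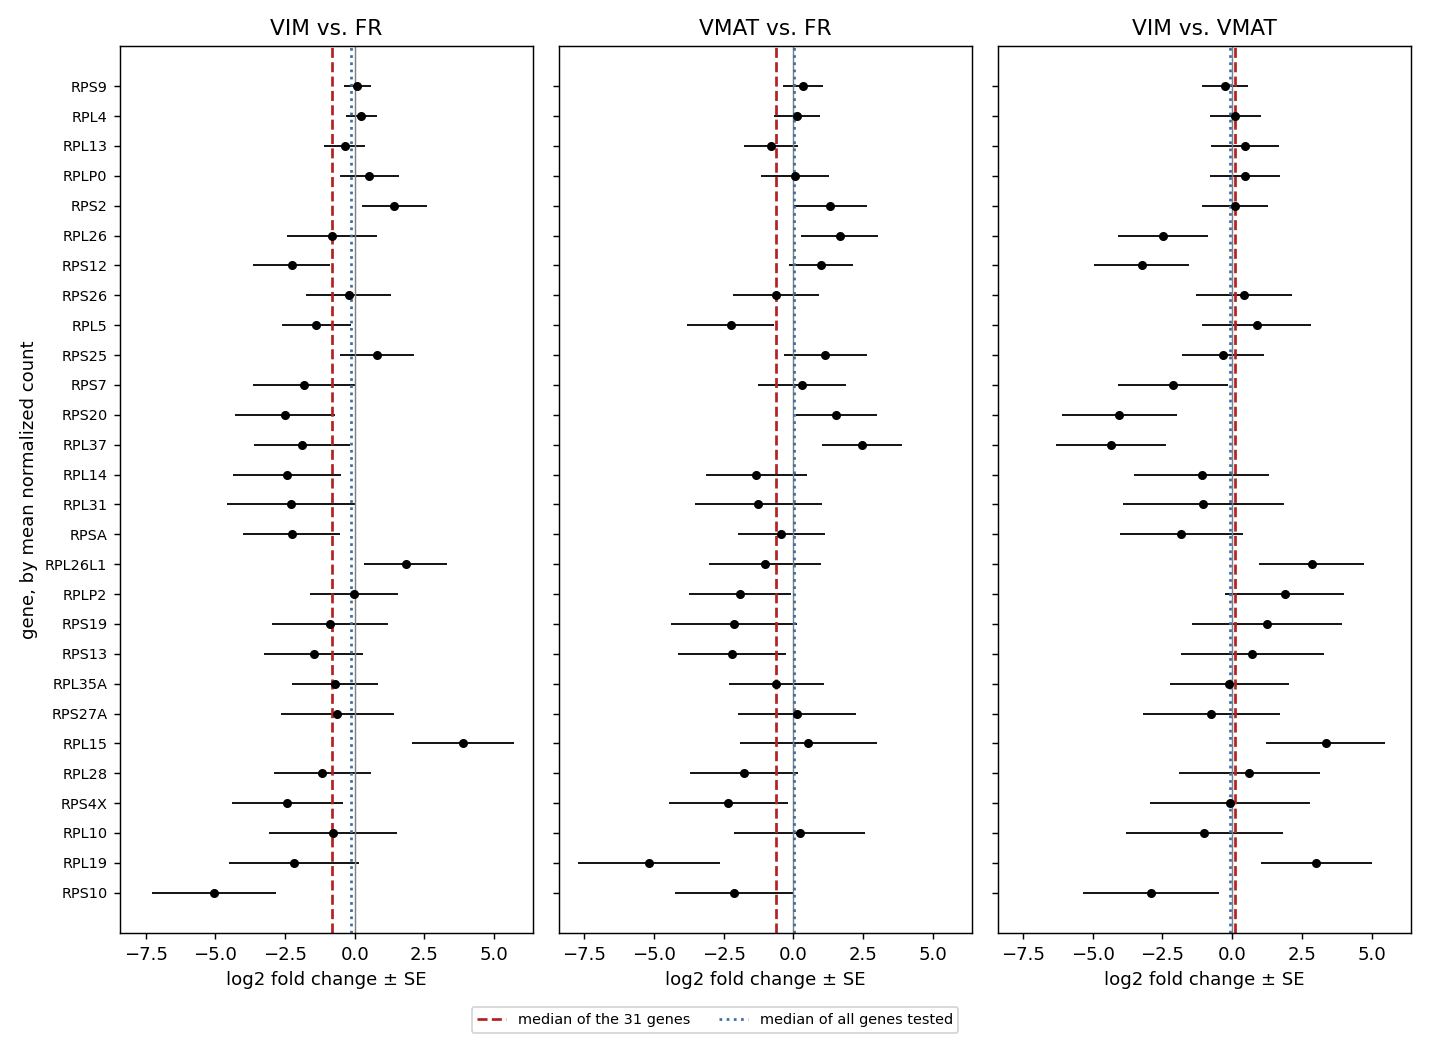
Log2 fold change (first group over second, limma on log2 of the normalized count plus 1) with its SE for 28 members, ordered by mean level, in the 3 comparisons, with dashed lines at the median of all 31 members and dotted lines at the median of all genes tested. Errors widen toward the bottom of the order, where RPS10 (VIM vs. FR, -5.04) and RPL19 (VMAT vs. FR, -5.19) lie farthest from 0.

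The second comparison asked how oocytes vitrified after maturation differed from fresh ones, and used the same FR libraries. In limma, 0 of 31 members passed the thresholds (background 0%, 0 of 8305 genes, smallest adjusted p 0.950), and 1 of 31 had an unadjusted p under 0.05, against 3.62% of all genes (301 of 8305).

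That member was RPL19. It was at 1.84, 1.63, 415 and 1.96 in VIM, at 0, 0.751 and 0 in VMAT and at 7.55, 2.29, 333, 167 and 102 in FR. All VMAT libraries were below all FR libraries and below all VIM libraries. VMAT did not overlap with FR, in either direction, for 3.19% of all genes, and with VIM for 4.5%. The share of genes with VMAT lowest was not computed. The VMAT values were 0, 6 and 0 reads, and counts of 0 allow up to 3 reads, which are 9.34 normalized counts in VMAT replicate 1 and 3.54 in VMAT replicate 3, above the lowest FR and 3 of the VIM values. In reads, the 6 of VMAT replicate 2 exceeded the 2 of FR replicate 2. The log2 fold change against FR was -5.19 with an SE of 2.55 (limma, unadjusted p = 0.0497, adjusted p = 0.950), and with a pseudocount of 10 it was -2.73 (limma, unadjusted p = 0.127). DESeq2 called RPL19 (log2 fold change -7.91, adjusted p = 0.00506) and no other member, beside 4.26% of all genes, while edgeR called 0 members and 0.012% of genes (adjusted p of RPL19 0.365). At an unadjusted p under 0.05 DESeq2 had 1 member beside 10.8% of all genes, and edgeR 1 member beside 13.6%. RPL19 kept an unadjusted limma p under 0.05 in 2 of 8 fits that left out 1 library, those without FR replicate 1 or 2.

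Other members among the 6 with the smallest p were the 60S protein RPL37 (log2 fold change 2.46, SE 1.42), RPL5, which joins the subunit as part of the 5S ribonucleoprotein (-2.26, SE 1.56), RPL26 (1.66, SE 1.39) and the 40S protein RPS13 (-2.20, SE 1.95). RPL37 was at 7.98, 19.6, 14.5 and 327 in VIM, at 1494, 250.4 and 674 in VMAT and at 52.8, 46.9, 249, 341 and 90.9 in FR. RPL5 was at 28.9, 61.9, 678 and 570.1 in VIM, at 1316, 118 and 3.54 in VMAT and at 1273, 438, 537, 664 and 69.4 in FR. RPS13 was at 13.5, 557, 94.0 and 4.89 in VIM, at 12.4, 234 and 5.90 in VMAT and at 7.55, 342, 116, 344 and 294 in FR. RPL37 was high in VMAT replicates 1 and 3 and within the FR range in VMAT replicate 2, and RPL5 had only 3 reads in VMAT replicate 3. Without that library the log2 fold change of RPL5 was -0.11, and without VMAT replicate 1 it was -4.20. That of RPL26 was 0.49 without FR replicate 5, and that of RPS13 was -3.74 without VMAT replicate 2 and -1.19 without VMAT replicate 3. The median log2 fold change of the 31 members was -0.61 (13 higher and 18 lower in VMAT) and that of all genes 0.01 (50.3% higher and 49.7% lower). It was -0.92 in the 60S and -0.16 in the 40S genes. The family's median became 0.15 without VMAT replicate 1, the shallowest library, -0.30 without FR replicate 5, and 0.00 with replicate number as a block.

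The third comparison set oocytes vitrified before maturation against those vitrified after it. In limma, 0 of 31 members passed the thresholds (background 0%, 0 of 7627 genes, smallest adjusted p 0.967), and 1 of 31 had an unadjusted p under 0.05, against 2.98% of all genes (227 of 7627). DESeq2 called 0 members beside 3.87% of all genes, with 3 members at an unadjusted p under 0.05 (11.1% of all genes). EdgeR called 0 members beside 0.0131% of all genes, with 0 members at an unadjusted p under 0.05 (10.8% of all genes).

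RPL37 had the smallest p, with a log2 fold change of VIM over VMAT of -4.35 and an SE of 1.98 (limma, unadjusted p = 0.0295, adjusted p = 0.967). The VIM libraries other than replicate 4 held 12 or 13 reads of it, and VIM replicate 4 (327) lay above VMAT replicate 2 (250.4), so the groups overlapped. In 4 of 7 fits that left out 1 library RPL37 stayed under 0.05, and it lost that without VIM replicate 1 or VMAT replicate 1 or 3. RPS20 was at 12.3, 45.6, 2.41 and 340.3 in VIM, at 1161, 230.1 and 412 in VMAT and at 669.5, 10.3, 157, 146 and 699 in FR. As with RPL37, VIM replicate 4 was the only VIM library inside the VMAT range. The log2 fold change was -4.04 for RPS20 (SE 2.06), -3.25 for RPS12 (SE 1.70), 3.36 for RPL15 (SE 2.13), -2.48 for RPL26 (SE 1.62) and 2.86 for RPL26L1 (SE 1.88). RPL15 had 61.1 normalized counts or fewer in VMAT, and only VIM replicate 1 (49.7) lay among them. The log2 fold change of RPS12 was -2.08 without VIM replicate 3, that of RPL26 -1.003 without VIM replicate 2 and that of RPL26L1 1.55 without VMAT replicate 1. The median log2 fold change of the members was 0.11 (16 higher and 15 lower in VIM), and that of all genes -0.08 (47.8% higher and 52.2% lower).

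**Figure D5:**
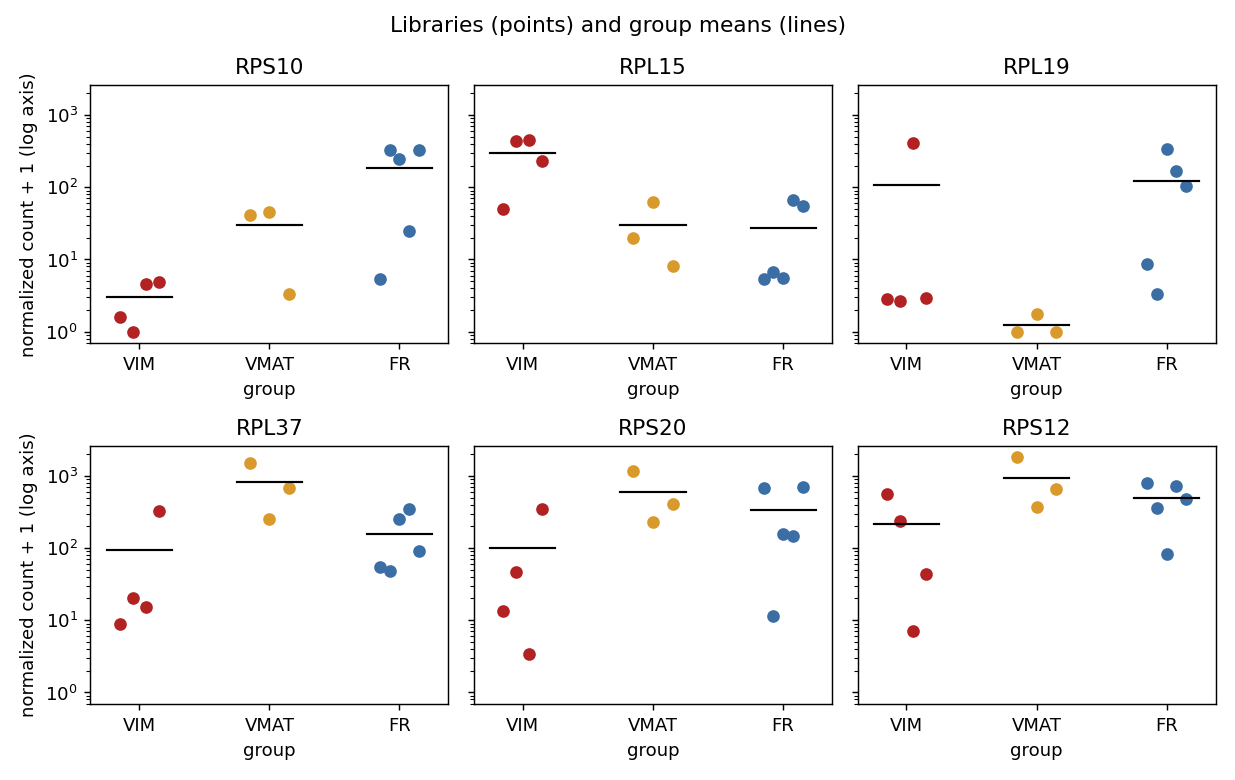
Normalized count plus 1 (log axis) of RPS10, RPL15, RPL19, RPL37, RPS20 and RPS12 in each library (points) and the mean of each group (lines, 4 VIM, 3 VMAT and 5 FR libraries). The VIM points of RPS10 lie below its FR points, the VMAT points of RPL19 lie below all others, and in RPL19, RPL37 and RPS20 the VIM mean is set by 1 library.

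Further members overlapped between all 3 groups. RPS2, beside the mRNA entry channel, ran from 32.0 to 1467. RPS26 ran from 6.03 to 1211, RPS25, which some viral mRNAs need for initiation, from 7.84 to 828, and RPS7 from 1.23 to 919. RPLP2 ran from 5.72 to 688, RPL35A from 9.70 to 349, and RPS27A, made as a fusion with ubiquitin, from 2.29 to 419.8. RPL28 ran from 2.41 to 326, RPS4X, encoded on the X chromosome, from 4.89 to 429 and RPL10 from 0.978 to 542. The members of this paragraph were in none of the sets of 6 smallest p-values.

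Genes that work with the ribosomal proteins were compared by lists. Of 3 listed ribosomal proteins that the naming rule leaves out, FAU, made as a fusion with RPS30, ran from 1.14 to 1166 and the 40S scaffold RACK1 from 8.01 to 2468 over the 12 libraries. Of 19 other genes listed for TOP mRNAs or their partners, 10 could be named and tested in each comparison. EEF1A1, the factor that brings tRNAs to the ribosome, was at 79.0 to 2094, the nucleolar protein NPM1 at 587 to 4391, and TPT1 at 305 to 2974, and these genes had 30 reads or more in all 12 libraries. Not every gene of the list was as steady. Per library, 6 to 10 of the 10 genes had 30 reads or more, with a median of 8. Of 52 listed ribosome assembly genes 28 could be named. In these 3 lists limma called 0 genes in any comparison. At an unadjusted p under 0.05 there were 0 of 3 and 0 of 10 genes of the first 2 lists in all comparisons. Of the 28 assembly genes 1 was higher in VIM vs. FR (NOL11, log2 fold change 2.74, SE 1.32), beside 3.78% of all genes. In VMAT vs. FR 1 was lower (UTP18, -4.41, SE 1.69), beside 3.62% of all genes. In VIM vs. VMAT 1 was higher (NOL11, 3.83, SE 1.63) and 1 lower (NOL8, -2.89, SE 1.26), beside 2.98%. Their adjusted limma p was 0.902, 0.950 and 0.967 in the 3 comparisons. NOL11 and UTP18 act in processing of the small subunit's RNA. Among the 13 oocyte markers, and for HAS2 and PECAM1, 0 had an unadjusted p under 0.05 in any comparison.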

How the data were processed

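The authors trimmed the reads (Trim Galore), mapped them to EquCab3.0 with STAR, handled alignments with SAMtools and molecular identifiers with UMI-tools, counted with RSEM and normalized with DESeq2. The deposited signal per gene and library is the count divided by the DESeq2 size factor. Whole reads were recovered from it (100% of values whole within 0.001) and used for edgeR 4.0.16, DESeq2 1.42.0 and statements on depth. Comparisons were fitted in R 4.3.3 with limma 3.58.1 (eBayes with trend) on log2(normalized count + 1), fitted over all genes above 0 in at least 4 (VIM vs. FR) or 3 libraries, with only the libraries compared. A call required a p of 0.05 or less after Benjamini-Hochberg adjustment and a log2 fold change of 1 or more in size. Limits for counts of 0 (3 reads, 95% confidence) cover counting error only.

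Members and lists were chosen with earlier results of these data known. Some results on single genes are not reported here, and 28 members are given by name. Named with fold changes were those among the 6 members of smallest p per comparison. Named with levels were the 5 highest and 5 lowest, the 3 most and 3 least variable, RPL26 and RPL26L1, and the 5 genes most alike. Genes named from other lists (DPPA3, BTG4, FIGLA, EEF1A1, NPM1, TPT1, NOL11, UTP18, NOL8) were chosen after their values were seen. Summaries were made in Python 3.11.15 (pandas 2.3.3, numpy 2.4.6, figures with matplotlib 3.10.9). The limma fit was also run on simulated counts with a much smaller spread than these libraries. That run therefore does not show which changes the fit could detect here. Sequences and gene positions were not analysed here. Alternatives are given with their effects in the closing section.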

Additional observations from a re-analysis of the deposited data

Results flagged for a closer look

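In groups of 4 or 5 libraries, a library was marked when its gap to the nearest other exceeded Dixon's 95% critical value for the group. The 60 groups tested were 28 members, the family's share and its number of members with at least 30 reads, each in VIM and FR. Of these groups, 9 were marked. For normal data chance gives about 1 in 20, or 3. Normalized counts were skewed within groups (1.63 to 901 for RPL31 in VIM), so that expectation does not apply. No excess is read from the number marked. In VIM the marked libraries were replicate 1 for RPL10 (269, others 0.978 to 16.3), replicate 3 for RPL19 (415, others 1.63 to 1.96) and replicate 2 for RPS13 (557, others 4.89 to 94.0). RPL26L1 was low in VIM replicate 3 (125, others 409 to 464). VIM replicate 4 was the high library for RPL31 (901, others 1.63 to 3.62), RPL37 (327, others 7.98 to 19.6), RPS20 (340.3, others 2.41 to 45.6) and RPS7 (852, others 1.23 to 139). In FR the marked library was replicate 1 for RPL10 (542, others 3.43 to 91.8).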

How the results depend on the processing

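Every one of the 16 log2 fold changes named for members kept its direction under all alternatives that tested its gene, including each left-out library. With DESeq2, 2 of them passed the thresholds. These 16 were picked for small p in the same libraries, so a kept direction was likely beforehand and is no added support. Sizes varied, and that of RPL5 in VMAT vs. FR ran from -4.20 to -0.11 over the left-out libraries. The number of members past the thresholds was 0 under all alternatives other than DESeq2, which gave 1 in each comparison with FR. The number of members at an unadjusted p under 0.05 moved as follows. In VIM vs. FR it was 1 with a pseudocount of 10, with a minimum normalized count of 10, with equal column totals, with the replicate block and with edgeR, and 3 with DESeq2. In VMAT vs. FR it was 2 with no filter on low values, 0 with equal column totals and 0 with the replicate block, under which the members' median was 0.00435. With a pseudocount of 10 it stayed 1, but RPL37 took the place of RPL19. In VIM vs. VMAT it was 2 with a pseudocount of 10, 3 with no filter, 3 with all samples in one fit, 3 without trend, 2 with the replicate block, 0 with edgeR and 3 with DESeq2. Leaving out 1 library at a time gave 0 to 2, 0 to 2 and 0 to 3 such members in the 3 comparisons, and members' medians of -1.34 to -0.56, -0.89 to 0.15 and -0.28 to 0.25, while DESeq2 gave a median of -0.38 in VIM vs. FR. The median in VIM vs. VMAT turned negative without VIM replicate 1 or 3 or VMAT replicate 3, and was -0.03 with edgeR. The share held by the members was then 0.516% to 0.555% in VIM, 0.539% to 0.567% in VMAT and 0.578% to 0.674% in FR. The cause was not tested.

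Deviations of libraries with equal replicate numbers had r of -0.030 to 0.013. FR and VMAT oocytes were matured together, but the labels do not say whether equal numbers share a maturation run. A near-zero r of noisy values cannot decide this, so the basis of the block is unknown. Equal column totals moved the median of all genes to -0.20, 0.03 and -0.19. The number of member values with few reads, 99 under 30, was 74 under 10 and 127 under 100 (limits chosen after seeing the data). A wider list of members was not run, because the reference table holds no Ensembl identifiers of the genes. Under a pseudocount of 10 the log2 fold change was -3.16 for RPS10 in VIM vs. FR and -2.73 for RPL19 in VMAT vs. FR.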
